A study of Neurospora crassa OR74A and Aspergillus nidulans FGSC A4 with 22 samples.

Results

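The genes described here encode xylanases and xylan side-chain hydrolases of the filamentous fungus *Neurospora crassa*. They were taken by locus number and enzyme family: members of glycoside hydrolase (GH) families GH10 and GH11, xylosidases of GH3 and GH43, an arabinofuranosidase of GH51 and an alpha-glucuronidase of GH67. They number 10 of the 9582 genes in the *N. crassa* table. The list does not hold every gene of these families, and other GH3 and GH43 genes are described further below. RNA was sequenced from hyphae of wild-type *N. crassa* OR74A grown for 16 h at 25°C in liquid medium with 2% sucrose under constant light, washed without a carbon source, and moved for 4 h either to medium with 2% Avicel PH-101, a microcrystalline cellulose, or to medium with no added carbon source. The no carbon cultures thus served as the starved control for exposure to Avicel, and each group had 3 libraries, described as biological triplicates. According to the study, Avicel still holds a little hemicellulose, to which it ascribes induction of xylanase and xylose-use genes without *clr-2*. The part of this hemicellulose in the values below was not tested. The study also lists some xylan genes, among them the xylanase gene *gh10-3* (NCU04997), as dependent on *clr-2*. It reports that dependence as conserved for *clrB*, the *A. nidulans* ortholog of *clr-2*. Wild-type *Aspergillus nidulans*, grown for 16 h at 37°C in 1% glucose and moved for 6 h to 2% Avicel or to no carbon, again with 3 libraries per group, is drawn on only for counterpart genes. The tables used rest on 12 of the 22 samples in the series. The other 10, from the Δ*clr-2*, Pc2 (*clr-2* misexpression) and Δ*clrB* strains, were not analysed here.

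Xylan is the main hemicellulose of many plant cell walls, a backbone of xylose units that carries acetyl groups, arabinose and glucuronic acid. Endoxylanases of GH10 and GH11 cut inside the backbone, xylosidases release xylose from the ends of the fragments, and arabinofuranosidases, glucuronidases and esterases take off the side groups that hinder the backbone-cutting enzymes. In filamentous fungi many of these enzymes are secreted along with cellulases, and a zinc cluster transcription factor, XLR-1 in *N. crassa* and XlnR in *Aspergillus*, is known for controlling many of their genes.

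The table gives the authors' mean of each group, in read counts divided by DESeq's size factor of each library and averaged over the 3 libraries, and no value per library. These are called normalized counts below, and differences are given as the log2 of the Avicel mean over the no carbon mean. Since there are no columns per library, no member could be tested. For low means the whole reads of each library were worked back from the mean, which gave the size factors, an estimated depth of 9.67 to 54.9 M counted reads in the Avicel libraries and 43.0 to 112 M in the no carbon libraries, and a dispersion between libraries, the squared relative spread beyond counting error. Libraries are numbered by size factor, 1 the largest and 3 the smallest, and were not matched to replicate numbers.

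Among genes higher on Avicel, 1 library stood apart. Over the 52 genes at least 4-fold higher on Avicel whose Avicel reads could be recovered, Avicel library 3, the shallowest of the 12 libraries behind the tables, held the highest normalized count in 36 (69.2%), against 1190 (40.5%) of the other 2937 genes, and its median excess over the other libraries was 2.67-fold. Without it, 33 of the 52 were still at least 4-fold higher on Avicel. The dispersion on Avicel was accordingly 0.838 over those 52 genes and 0.117 over the others. The 52 genes were picked by the same Avicel means, so a high count in 1 library could itself bring a gene into the set. How far that choice raised the excess of library 3 and the dispersion was not tested. On no carbon, library 2 held the highest count in 23 of 43 recovered genes at least 4-fold higher on Avicel (53.5%) and in 291 of 894 others (32.6%). Every log2 value of a member therefore carries 2 errors. The first is a standard error (SE) borrowed from the dispersion of all recovered genes (0.132 on Avicel, 0.161 on no carbon), which is below the dispersion of those 52 genes. The second, a wider one, comes from the recovered genes that were themselves at least 4-fold higher on Avicel. Recovered genes had means of at most 999 on Avicel, below the Avicel mean of every member, and at most 211 on no carbon. Whether either dispersion holds at the higher levels of the members was not tested. On Avicel, reads per library could be narrowed down for *gh10-3* alone among the members, so for the others no value without library 3 can be given, and its part in them was not tested.

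All 10 genes had higher means on Avicel than on no carbon, and all 10 exceeded a ratio of 4, the fold limit of the study's methods. Of all 9582 genes in the table, 305 did so, or 3.18% (2.77% of the genes with a mean of at least 10). All 10 also passed a limit of 2, as did 8.36% of the table, and 9 passed a limit of 8, as did 1.75%. With both groups scaled to equal sums, 9 of the 10 and 2.41% of the table passed the limit of 4. The median log2 value was 5.39 over the members, from 2.27 to 11.83, and -0.02 over the 9389 genes with both means above 0. Summed over the 10 genes, the normalized counts were 25952 on no carbon and 1940230 on Avicel, 74.8-fold higher, and the share of all counts was 0.0620% and 3.38%. Such shares count reads, not transcripts per length, so a long gene takes a larger share than a short one of equal abundance. The genes were chosen with their values in these libraries known, and the count is no independent evidence of their direction.

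**Figure D1:**
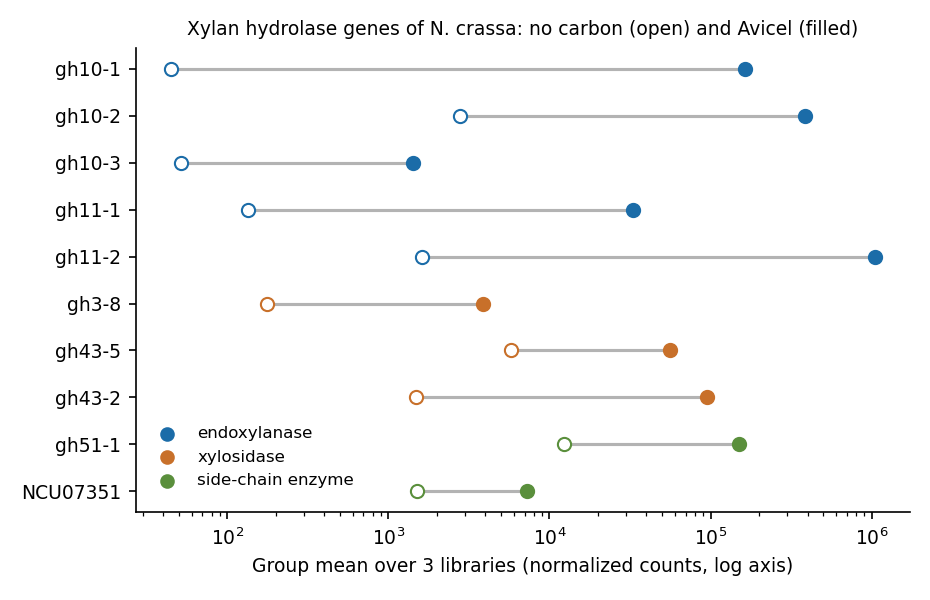
Authors' mean normalized counts (log axis) of the 10 genes on no carbon (open circles) and on Avicel (filled circles), coloured by role, each a mean over 3 libraries and without error bars because the table holds no values per library. Every filled circle lies to the right of its open circle, with the longest line for *gh10-1* (44.7 to 163224) and the shortest for the alpha-glucuronidase gene NCU07351 (1506 to 7264).

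The 5 endoxylanase genes had the larger differences as a class. Their summed normalized counts were 350-fold higher on Avicel (log2 8.45), and they made up 17.9% of the members' counts on no carbon and 83.9% on Avicel. The highest log2 value of the group was that of *gh10-1* (NCU05924), a GH10 endoxylanase, with means of 44.7 on no carbon and 163224 on Avicel. Its log2 value of 11.83 ± 0.46 (SE; 0.87 with the wider dispersion) corresponds to 3653-fold and ranked 3 among all genes of the table with both means above 0. Its no carbon level rests on 138, 117 and 37 reads in libraries 1, 2 and 3, or 51.4, 46.6 and 36.0 normalized counts. The 3 libraries thus lay within 1.43-fold of each other, and leaving out any of them gave log2 values of 11.70 to 11.95.

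The other GH11 and GH10 genes started from different levels. The GH11 endoxylanase gene *gh11-2* (NCU07225) had a mean of 1626 on no carbon and 1042360 on Avicel, 641-fold higher (log2 9.32 ± 0.45, wider SE 0.87). It was the gene with the second highest Avicel mean in the table, after the cellobiohydrolase gene *cbh-1* (2398170), and it alone accounted for 6.26% of the members' counts on no carbon and 53.7% on Avicel. The other GH11 gene, *gh11-1* (NCU02855), had means of 135 and 32915, a 244-fold difference (log2 7.93 ± 0.45, wider SE 0.87). Its 3 no carbon libraries held 90.5, 254 and 60.3 normalized counts, so library 2 was the high one, and the log2 value became 8.77 without it and 7.58 to 7.71 without either of the others. The GH10 gene *gh10-2* (NCU08189), at 2798 normalized counts on no carbon and 387885 on Avicel, was 139-fold higher (log2 7.12 ± 0.45, wider SE 0.87). It took up 10.8% of the members' counts on no carbon and was the second most counted member on Avicel.

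The GH10 gene *gh10-3* (NCU04997) had the smallest difference of the endoxylanases, from 51.9 to 1422 normalized counts (27.4-fold, log2 4.78 ± 0.46, wider SE 0.87). On no carbon its libraries held 32.8, 89.7 and 33.1 normalized counts, and library 2 again was the high one. Without it the log2 value was 5.43, and without library 1 or 3 it was 4.53 or 4.54. On Avicel, 4 different sets of whole reads give the deposited mean, so the libraries could not be told apart. Over these 4 sets the log2 value without library 3 lay between 4.31 and 5.14, or 19.9-fold to 35.3-fold, and the value without any single Avicel library lay between 3.39 and 5.30. In each of these cases the mean on Avicel stayed more than 4 times that on no carbon.

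**Figure D2:**
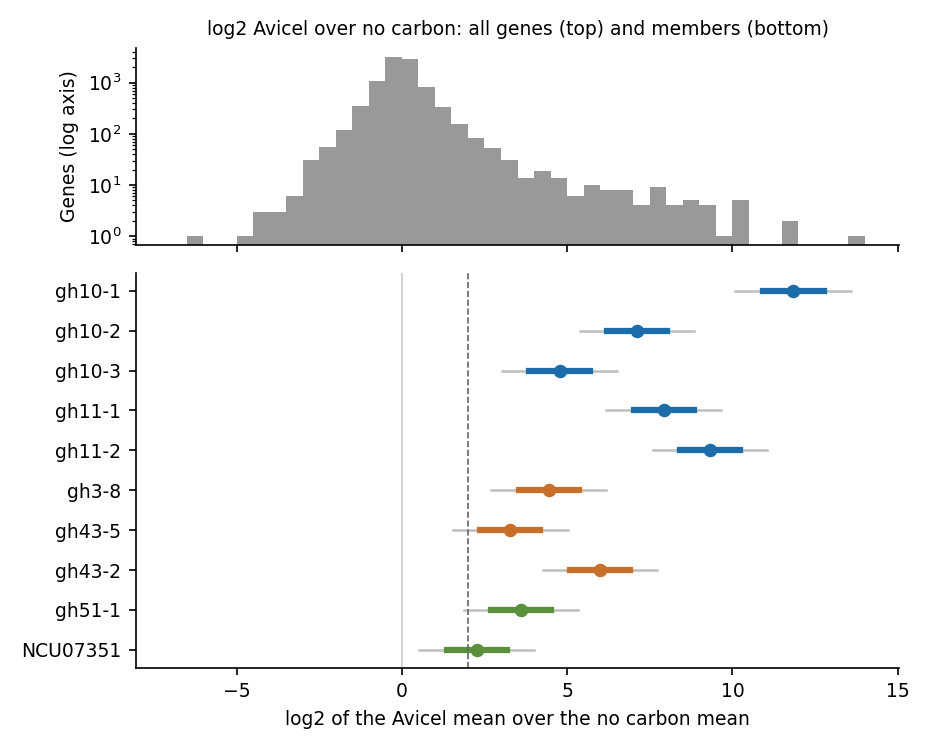
Top, number of *N. crassa* genes (log axis) by log2 of the Avicel mean over the no carbon mean, for the 9389 genes with both means above 0. Bottom, the 10 genes on the same axis, with thick bars of 2 SE from the dispersion of all recovered genes, thin grey bars of 2 SE from that of genes at least 4-fold higher on Avicel, and a dashed line at the 4-fold limit. The 5 endoxylanases lie between 4.78 and 11.83 and the side-chain enzymes at 2.27 and 3.61.

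Xylosidases release xylose from the ends of xylo-oligosaccharides. The summed counts of the 3 genes in this class were 20.8-fold higher on Avicel (log2 4.38), and their part of the members' counts was 28.6% on no carbon and 7.96% on Avicel. The GH43 gene *gh43-2* (NCU01900) had means of 1480 and 94490, 63.8-fold higher (log2 6.00 ± 0.45, wider SE 0.87). Family GH43 holds both xylosidases and arabinofuranosidases. Another GH43 gene, *gh43-5* (NCU09652), had means of 5759 on no carbon and 56036 on Avicel, 9.73-fold higher (log2 3.28 ± 0.45, wider SE 0.87). It was the second most counted member on no carbon, with 22.2% of the members' counts, but took up 2.89% on Avicel. The study places its product among intracellular enzymes acting on pectin breakdown products. It puts the gene in clusters induced in *A. nidulans* but rather constant in *N. crassa*. In the means used here, the log2 value of its *A. nidulans* ortholog *bxlD* was 3.19 ± 0.34, within error of the 3.28 for *gh43-5*. The GH3 xylosidase gene *gh3-8* (NCU00709) had means of 178 and 3862, 21.8-fold higher (log2 4.44 ± 0.45, wider SE 0.87). Its no carbon reads have 2 possible splits, 279, 138 and 116 or 140, 203 and 190 normalized counts in libraries 1, 2 and 3, and in neither did any library lie more than 2.41-fold above another.

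Among the members, the 2 side-chain genes had the smallest summed difference of any class, although the xylosidase gene *gh43-5* (3.28) lay below *gh51-1* (3.61). Other genes for removing side groups, described below, are not part of this class. The esterase and GH115 genes among them had log2 values from 2.82 (*ce1-3*) to 10.29 (*ce1-1*). Summed over the 2 side-chain members the counts were 11.4-fold higher on Avicel (log2 3.51). Their part of the members' counts was 53.5% on no carbon and 8.15% on Avicel. Most of that was *gh51-1* (NCU02343), a GH51 arabinofuranosidase gene, whose mean was 12374 on no carbon and 150768 on Avicel, 12.2-fold higher (log2 3.61 ± 0.45, wider SE 0.87). It was the most counted member on no carbon, with 47.7% of the members' counts, and held 7.77% on Avicel. The alpha-glucuronidase gene NCU07351, whose GH67 product removes glucuronic acid from xylan fragments, had means of 1506 and 7264, 4.82-fold higher (log2 2.27 ± 0.45, wider SE 0.87). It lay nearest the 4-fold limit of all members. Its interval of 2 SE, 1.37 to 3.17, included that limit, and with both groups scaled to equal sums its log2 value was 1.82, below the limit. With the wider SE, the intervals of 2 SE of *gh43-5* and *gh51-1* included the limit as well. In the NC12 reference the gene model of NCU07351 overlaps that of the neighbouring gene NCU07350. The study states that its counts are of reads on unique exons. Whether reads were counted by strand is not given in the sources used here. Reads of the shared stretch may thus be left out or not fully separated. The models of *gh10-2* and *gh43-5* also overlap a neighbour, NCU08190 and NCU09653.

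Ordered by log2 value, the 10 genes ran *gh10-1*, *gh11-2*, *gh11-1*, *gh10-2*, *gh43-2*, *gh10-3*, *gh3-8*, *gh51-1*, *gh43-5* and NCU07351. Of the 9 steps between neighbours in that order, 2 exceeded 2 combined SE, those from *gh10-1* to *gh11-2* (2.51) and from *gh11-2* to *gh11-1* (1.39). With the wider dispersion only the first did. The genes share their libraries, so these errors are not independent between genes. As point values, the 5 endoxylanases (4.78 to 11.83) and the 2 side-chain members (2.27 and 3.61) did not overlap. The xylosidases (3.28 to 6.00) overlapped both. The gap was within error, since the intervals of 2 SE of *gh10-3* (3.85 to 5.70) and *gh51-1* (2.70 to 4.51) overlapped. For a possible set of Avicel reads, *gh10-3* without Avicel library 2 had 3.39, below *gh51-1*.

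Other genes for xylan breakdown were described from a list of 15 esterases, glucuronidases, arabinofuranosidases and xylosidases. Of these, 14 were at least 4-fold higher on Avicel, against 3.18% of all genes, and the median log2 value of the list was 6.14. Avicel reads were recovered for 4 of the 15, and of the 3 among them past the limit, 2 were past it without library 3. Many of them had been placed in the study's own lists for their difference in these libraries, so that count, too, is no independent evidence. The acetyl xylan esterase gene *ce1-1* (NCU04870) had the highest value of the list, 10.29, with means of 41.6 and 52289. The acetyl xylan esterase genes *ce5-3* (NCU09664) at 8.60, *ce5-2* (NCU05159) at 7.95, *ce1-4* (NCU00710) at 6.63 and NCU03181 at 6.14 also lay above the median of the 10 members, whereas *ce1-3* (NCU04494) had 2.82. Without no carbon library 2 the *ce5-3* value was 9.52. The feruloyl esterase gene *fea-1* (NCU09491) had a log2 value of 4.82, the xylosidase gene *gh3-7* (NCU09923) of 4.30, and the GH115 gene *gh115-1* (NCU06143), of a family of xylan alpha-glucuronidases, of 5.01. The gene below the limit was the GH43 gene *gh43-7* (NCU05965), with means of 367 and 419 (log2 0.19 ± 0.46). The study names it an arabinosidase among secreted pectinases, in clusters whose expression was rather constant in *N. crassa*. Another GH43 gene of the list, *gh43-6* (NCU07326), had a log2 value of 7.84.

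Recovered reads on Avicel show what the third library means for low genes of this list. The arabinofuranosidase gene *gh54-1* (NCU09775) had 114, 110 and 2366 normalized counts in Avicel libraries 1, 2 and 3, and its difference of 24.1-fold became 3.13-fold, under the limit, without library 3. The gene *gh62-1* (NCU09774), named for family GH62 but annotated otherwise in the study's tables, had 37.6, 46.4 and 308. The gene *ce15-1* (NCU09445), of a glucuronoyl esterase family, had 87.8, 120 and 623, and its 20.2-fold difference became 7.57-fold without library 3. In these 3 genes library 3 was the highest by several fold, whereas *gh43-7* held 416, 463 and 380, with library 3 the lowest. On no carbon *gh54-1* had 38.4, 44.7 and 24.3 normalized counts, below all of its Avicel libraries. For the highly counted members, whose Avicel reads could not be recovered, the order of the libraries is not known.

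**Figure D3:**
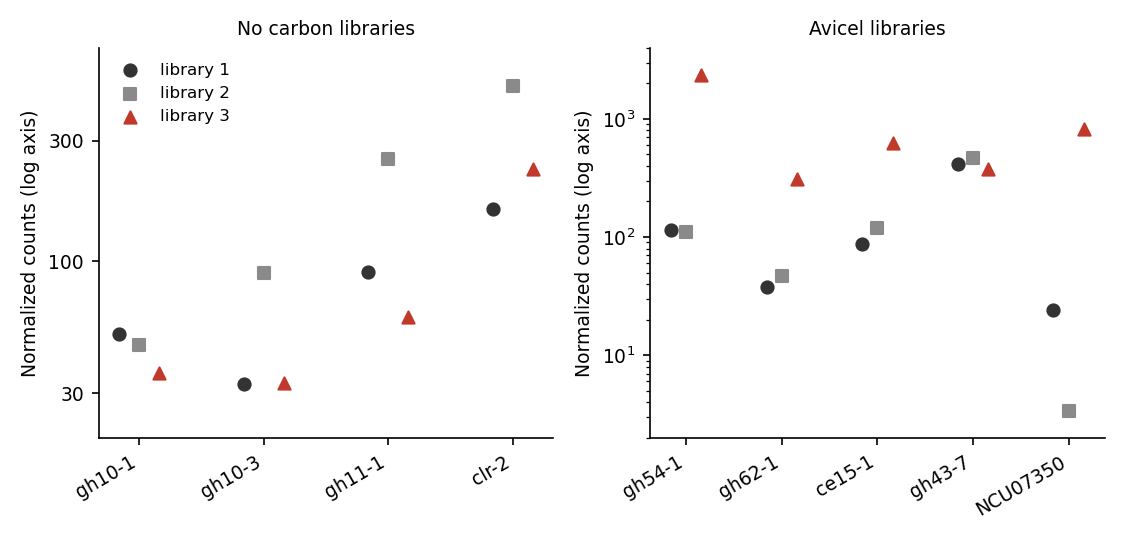
Normalized counts per library (log axes), worked back from the group means, for 3 members and the regulator gene *clr-2* on no carbon (left) and for 4 other xylan genes and the neighbour NCU07350 on Avicel (right). Library 2 is the highest on no carbon for *gh10-3*, *gh11-1* and *clr-2* but not for *gh10-1*, and library 3 is the highest on Avicel for all genes shown except *gh43-7*.

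Genes for the use of the released pentose and for regulators are given for context. The 5 pentose genes all exceeded 4-fold, against 3.18% of all genes, with a median of 4.61. Among them were those for xylose reductase (NCU08384, log2 8.20) and xylitol dehydrogenase (NCU00891, log2 4.61), the enzymes that turn xylose into xylitol and then into xylulose. The study names these genes from clusters induced on Avicel in *N. crassa*, so their count is no independent evidence. Of the 3 regulator genes, *clr-2* (NCU08042), for a zinc cluster factor required for cellulase genes, had means of 295 and 34926 (log2 6.89), *clr-1* (NCU07705) 5321 and 24595 (log2 2.21), and *xlr-1* (NCU06971) 7845 and 29799. The *xlr-1* difference was 3.80-fold (log2 1.93 ± 0.45), just under the limit. On no carbon *clr-2* held 160.5, 494 and 232 normalized counts in libraries 1, 2 and 3, so library 2 was the high one, as for *gh10-3* and *gh11-1*, and the log2 value was 7.48 without it.

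The 6 cellulase genes of the GH5, GH6 and GH7 families set side by side had a median log2 value of 9.48 and a summed difference of 942-fold, against 5.39 and 74.8-fold for the xylan hydrolases. Their share of all counts was 0.0108% on no carbon and 7.44% on Avicel. The single values overlapped, since *gh10-1* (11.83) lay above 5 of the 6 cellulases, with *gh5-1* at 11.90, while the cellulase gene *gh7-2* (5.90) lay below 5 of the xylan hydrolases. The difference between the groups of genes was not tested.

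**Figure D4:**
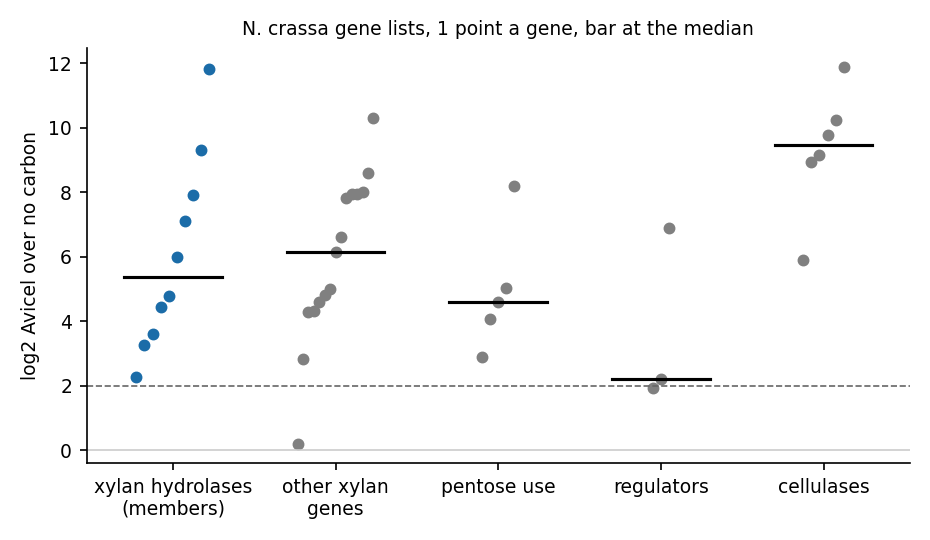
log2 of the Avicel mean over the no carbon mean for the 10 xylan hydrolases (blue) and for the other xylan genes, pentose use genes, regulators and cellulases (grey), with 1 point per gene, a bar at each median and a dashed line at the 4-fold limit. The medians are 5.39, 6.14, 4.61, 2.21 and 9.48 in that order, and *gh43-7* (0.19) and *xlr-1* (1.93) are the genes below the line.

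The genes next to the members on the chromosome were read from the gene order of the NC12 reference, which lists all 10 members. Of the 20 neighbours, 8 were at least 4-fold higher on Avicel, against 3.26% of the 9078 table genes in that order, with a median log2 value of 0.78 over the 20. The GH11 gene *gh11-2* lay between NCU07226 (log2 6.42) and NCU07224 (log2 7.40), the latter annotated as a monooxygenase, and *gh3-8* lay beside the acetyl xylan esterase gene *ce1-4* (log2 6.63). The neighbour of *gh51-1*, *gh61-12* (NCU02344), a gene of the family of polysaccharide monooxygenases, had a log2 value of 5.06, and NCU07510 beside *gh10-2* one of 6.40. By contrast, *gh10-1* stood between NCU05925 (0.35) and *cdh-2* (NCU05923, -0.28), and the neighbours of *gh43-5* and *gh43-2* had values from -0.39 to 0.03. Avicel reads were recovered for 4 of the 8, and without library 3 only 2 of these 4 were past the limit. The gene NCU07350, beside the alpha-glucuronidase gene, had 24.0, 3.40 and 824 normalized counts in Avicel libraries 1, 2 and 3, and its log2 value of 2.46 became -1.91 without library 3. On no carbon it had 3.72, 149.9 and 0.973, and without no carbon library 2 the value was 6.92, so its direction depended on the library. The gene NCU02856, beside *gh11-1*, had 39.7, 49.8 and 243, and its value of 2.69 became 1.38, while it was 5.52 without no carbon library 2. The 2 still past the limit without library 3 were NCU07226 (6.21) and NCU07510 (6.85), whose Avicel libraries held 803, 996 and 178. The other 4, NCU07224, *ce1-4*, *gh61-12* and NCU07352, could not be checked in this way.

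The *A. nidulans* counterparts, paired by the study's ortholog and paralog lists, gave 13 pairs with 11 *A. nidulans* genes. Of these, 10 were at least 4-fold higher on Avicel, where 4.16% of that species' table were. The tables were normalized separately and the times and temperatures differed, so only log2 values within each table are set side by side, and the lists hold genes picked for their difference in these libraries. The *N. crassa* value was the larger in 9 pairs, by more than 2 combined SE in 6, and the *A. nidulans* value in 4, by more than 2 combined SE in 3. With the wider SE of the *N. crassa* genes these counts were 6 and 2, the pair *gh10-2* and *xlnE* being the one lost. No wider SE was worked out for the *A. nidulans* genes, whose SE rests on all recovered genes of that species. For *gh10-1* and *xlnC* the values were 11.83 ± 0.46 and 8.83 ± 0.34, and for *gh11-2* and *xlnA* 9.32 and 6.82. The order was the other way for *gh10-3* and *xlnE* (4.78 and 8.76 ± 0.40) and for *gh3-8* and *bxlB* (4.44 and 7.04 ± 0.39). On no carbon *xlnE* had 8.28, 28.8 and 8.69 normalized counts in libraries 1, 2 and 3, and its log2 value was 9.60 without library 2. The arabinofuranosidase pair *gh51-1* and *abfA* had 3.61 and -0.15, with *abfA* at 47.8, 84.5 and 61.8 normalized counts in the no carbon libraries and 63.8, 37.9 and 73.1 in the Avicel libraries, which overlapped. For the alpha-glucuronidases NCU07351 and *aguA*, 2.27 and 3.23 differed by less than 2 combined SE.

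**Figure D5:**
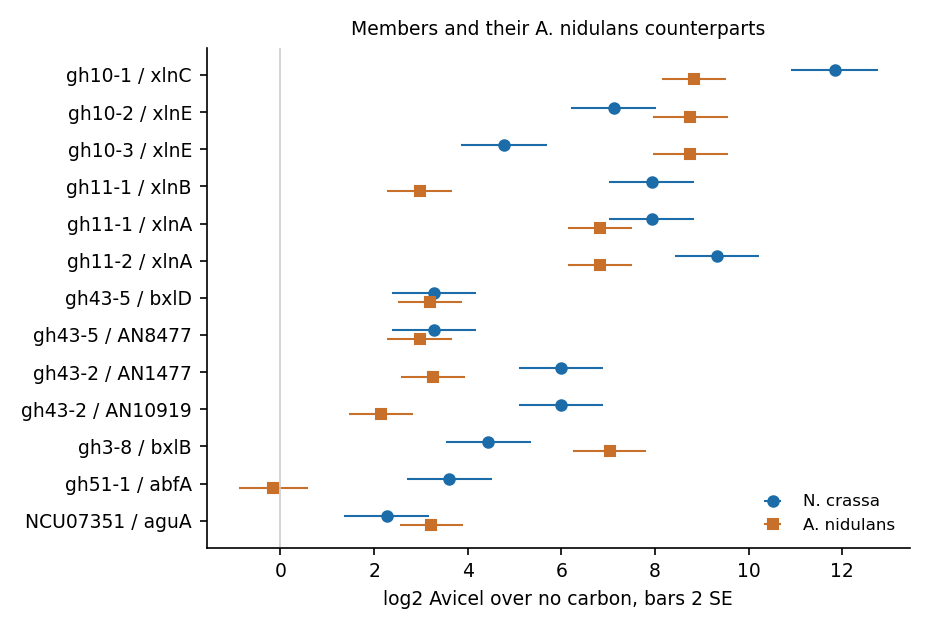
log2 of the Avicel mean over the no carbon mean, with bars of 2 SE, for each *N. crassa* member (blue circles) and its *A. nidulans* counterpart (orange squares) over 13 pairs. The *N. crassa* bars use the dispersion of all recovered genes. The squares lie to the right for *xlnE*, paired with *gh10-2* and *gh10-3*, for *bxlB* and for *aguA*, and *abfA* lies at -0.15.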

How the data were processed

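The authors deposited 1 table of signal values per species, in which each value is the mean over a group of HTSeq read counts scaled by DESeq size factors, from reads mapped with TopHat 2.0.4 to predicted transcripts. The submitters' processing notes also name CASAVA 1.8.0 and Cufflinks 2.0.2. The genome build and counting by strand are not given in the sources used here. Columns with the authors' fold change, log2 fold change, p-value and adjusted p-value were not used, and with no values per library no test was run, so the planned dependence on single libraries was taken only where reads were recovered.

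Whole reads per library were recovered from means under the size factors for 3909 Avicel and 1953 no carbon genes of *N. crassa*, and dispersions were fitted over those with a mean of at least 20. In a simulation of both groups over 9582 genes each, 100% of the genes recovered had the right reads, and a dispersion of 0.1 came out at 0.100 and 0.103. Errors cover counting and this dispersion.

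Named genes were all 10 members, 4 lists, chromosomal neighbours, counterparts and the gene nearest in both means. Members and lists were chosen with earlier results of these data known. Gene order came from refseq_genes (NC12), with 9078 table genes found. The planned search for promoter motifs was not run. Alternatives covered scaling, fold limit, pseudocount, filter, single members and single libraries. Python 3.11.15, numpy 2.4.6, pandas 2.3.3, scipy 1.17.1, numba 0.67.0 and matplotlib 3.10.9 were used.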

Additional observations from a re-analysis of the deposited data

How the results depend on the processing

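Of 74 recomputed values, 24 moved by more than their error or, for counts, by over 1.5 times, and none changed direction. They cover the members, their sums, shares and counts, all genes, neighbours and dispersions. Counts, shares and dispersions have no direction, and scaling or a pseudocount shifted log2 values by less than the lowest member's value. Single libraries could be left out for *gh10-1*, *gh10-3* and *gh11-1* alone among the members, so the lack of reversals says little. Of the 8 neighbours at least 4-fold higher, NCU07350 changed direction without Avicel library 3, from 2.46 to -1.91. Scaling both groups to equal sums lowered every log2 value by 0.45, gave a median of 4.93 and a summed value of 5.77, and left 9 of the 10 genes and 231 of the table's genes at least 4-fold higher. Without *gh11-2* the summed log2 value was 5.21 and the share of Avicel counts 1.57%, and leaving the 10 most counted genes out of the total gave a share of 3.93%. With fold limits of 2 and 8, 801 and 168 genes of the table passed, with 10 and 9 members. Without the lowest values, NCU07351 and *gh43-5*, the median was 6.56. This choice, the wider dispersion, the equal sums count of all genes, and the neighbours, listed genes and counterparts without single libraries were added after seeing the data. No paired analysis was possible because the tables hold group means with no column per replicate.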

Other observations

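For each member, the gene nearest to it in log2 normalized counts on no carbon and on Avicel was taken from 8662 genes with both means of at least 10. With 2 conditions this is a description of levels, uncorrected for gene length. The 2 nearest pairs were *gh11-1* with NCU08785, a gene of carbohydrate esterase family CE1 (distance 0.19, log2 Avicel over no carbon 8.02), and *gh43-2* with NCU05955 (*gh74-1*, distance 0.20, log2 6.04). The next were *gh3-8* with the endoglucanase gene *gh45-1* (NCU05121, 0.22) and the alpha-glucuronidase gene with *aro-6* (NCU05548, 0.24), a gene of aromatic amino acid synthesis with means of 1546 and 8588. The largest distances were those of the 2 members with the highest log2 values: the nearest to *gh11-2* was the cellobiohydrolase gene *gh6-2* (NCU09680), at over 1 log2 unit, and the nearest to *gh10-1* was *gh61-7* (NCU00836), at 1.14.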
